A study of Caenorhabditis elegans with 17 samples.

Results

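Cuticle collagens of *Caenorhabditis elegans* form the extracellular coat of the worm. The col genes described here are the protein-coding genes named col- followed by a number, 156 of the 20535 protein-coding genes in the files. The gene field of the files gives names only for non-coding RNAs. Members were therefore found by gene ID and named from the Ensembl release 115 annotation of WBcel235. Sense reads (same strand as the transcript) and antisense reads were summed per gene over its transcripts.

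The worm makes a new cuticle at each molt, and the hypodermis secretes collagens that assemble as trimers and are cross-linked outside the cell. Many col genes are transcribed in a pulse before each molt, and some at 1 stage only. COL-19 is the usual marker of the adult cuticle. Sense reads of small RNA libraries are mostly fragments of mRNA, while antisense reads of protein-coding genes are mostly siRNAs made by RNA-dependent RNA polymerases. NRDE-3 is the somatic nuclear Argonaute that binds such siRNAs. The exosome is the ribonuclease complex that trims and degrades RNA from the 3′ end. DIS-3 and EXOS-10 are its nucleases and EXOS-1 is a subunit of its core. ERI-1 is a nuclease needed for a class of endogenous siRNAs, and RRF-1 and RRF-2 are RNA-dependent RNA polymerases.

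The series holds 17 small RNA libraries, 1 per condition, from animals kept at 20°C. Total small RNA of young adults came from eri-1(mg366) animals fed bacteria with dsRNA of fib-1, mtr-4 or nol-56, or with the empty vector L4440 (4 libraries). FIB-1 and NOL-56 are nucleolar proteins of rRNA modification, and MTR-4 is an exosome helicase. NRDE-3 immunoprecipitates (IP) came from L3 larvae with 3xFLAG::GFP::NRDE-3 in eri-1(mg366), with dis-3(ust56) together with the rrf-1(pk1417) and rrf-2(ok210) mutations, with dis-3(ust56), exos-1(ust57) or exos-10(ok2269) alone, and with none of these as the control (5 libraries). Total small RNA of L3 larvae came from eri-1(mg366) with the same 5 sets of mutations, and from dis-3(ust56), exos-1(ust57) and the wild type N2 (8 libraries). The mutations are present in the whole animal. The alleles dis-3(ust56) and exos-1(ust57) are named below as dis-3 and exos-1, exos-10(ok2269) as exos-10, and the rrf-1 and rrf-2 alleles as rrf. RNA was treated with phosphatase and kinase before cloning, so reads did not need a 5′ monophosphate. Reads counted on transcripts numbered between 12154965 and 17155685 in the young adult libraries, 7485475 and 11036168 in the IP libraries, and 5094044 and 11556118 in the total L3 libraries.

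Sense levels below (sense RPM) are reads per 1000000 sense protein-coding reads. Antisense levels (RPM) are reads per 1000000 of the normalization number, which is all reads on transcripts without sense rRNA and sense protein-coding reads. The 156 members had 1772053 sense and 19952 antisense reads in all. Each member had a sense read in some library, and 4 members had no antisense read in any. A count of 3 reads was taken as the floor, between 0.585 and 9.58 sense RPM and between 0.441 and 20.6 antisense RPM, the highest in the dis-3 IP. The genes lie on chromosomes I (21), II (24), III (12), IV (41), V (31) and X (27), with a median exon length of 1020 bases. For 46 members an exon overlaps an exon of the other strand, so their antisense reads can include sense reads of that neighbour. Some pairs, such as col-12 and col-13 or col-10 and col-144, had parallel counts. Near-identical copies can share reads in the authors' alignment, and sequence identity was not analysed here. Reads of such pairs are uncertain for the single gene.

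Young adult libraries were first set against L3 libraries. Sense col reads made up 6.23% of sense protein-coding reads in fib-1 RNAi, 8.80% in mtr-4 RNAi, 10.4% in nol-56 RNAi and 3.26% in L4440 RNAi. In the 8 total L3 libraries the share had a lowest value of 0.884%, a median of 1.74% and a highest value of 2.86%. All 4 young adult libraries were above all 8 L3 libraries. Fewer cells of a type and less RNA per cell cannot be told apart in these whole-animal samples. Feeding on RNAi bacteria and the preparation of the libraries go with stage and cannot be told apart from it.

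edgeR's quasi-likelihood test compared the 4 young adult libraries with the 5 eri-1(mg366) L3 libraries. Each library was another genotype or RNAi clone, so the spread is that between conditions. At a Benjamini-Hochberg adjusted p of 0.05 over 8021 genes, 31 col genes were higher and 13 lower in young adults. Another 43 were not called, and 69 did not pass the expression filter and were not tested. Of all genes tested, 18.0% were called higher and 12.5% lower. The median log2 fold change was 0.20 over the 87 tested col genes and 0.11 over all genes. The called col genes thus went in both directions, with the share of lower calls (13 of 87) close to that over all genes.

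**Figure D1:**
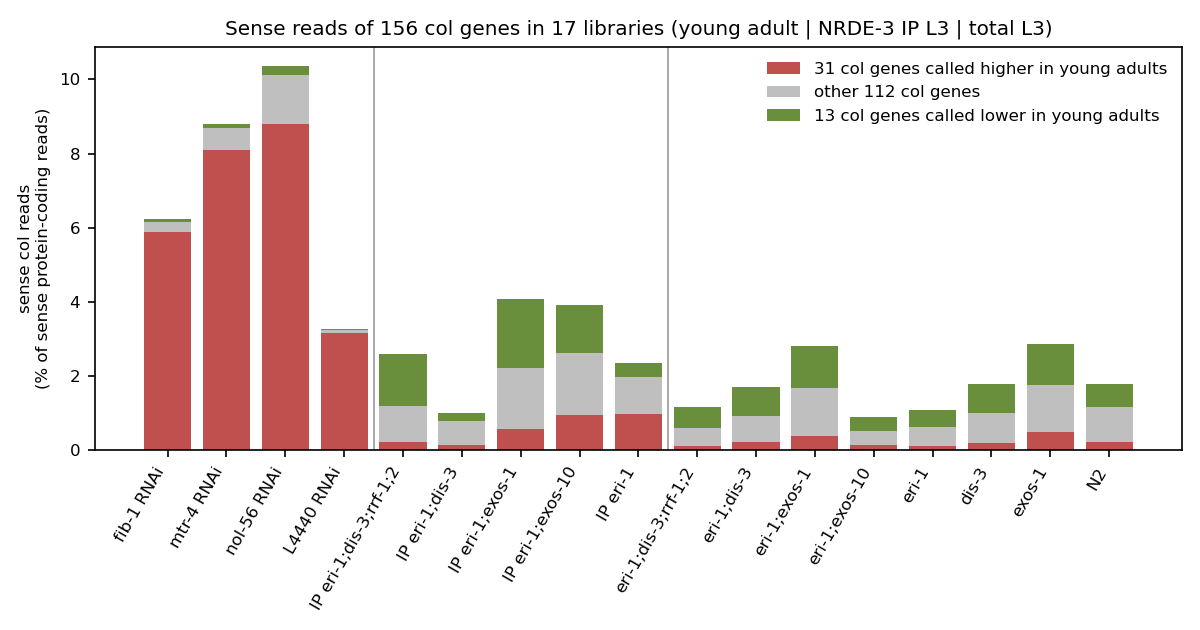
Summed sense reads of the 156 col genes as a percentage of sense protein-coding reads in each of the 17 libraries. Bars are stacked by the call of the young adult against L3 test (31 higher, 13 lower, 112 others). The 4 young adult libraries reach 3.26% to 10.4%, against 0.884% to 2.86% in the total L3 libraries.

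Among the genes higher in young adults, col-19 had 1387, 2100, 1847 and 823 sense RPM in fib-1, mtr-4, nol-56 and L4440 RNAi. It had 1 read in the 5 eri-1(mg366) L3 libraries together. The pooled ratio was 4148 with an exact 95% counting interval of 744 to 163828. col-106 had 1849, 2290, 2429 and 840 sense RPM in the 4 young adult libraries in the same order and no read in the 5 L3 libraries. This is at least 1663-fold higher when 3 reads over the 5 libraries are taken as the floor. Both genes separated the stages completely.

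col-140 was the most abundant collagen per kb in young adults. Its level was 14969, 14642, 11368 and 7180 in fib-1, mtr-4, nol-56 and L4440 RNAi. In the 5 L3 libraries it was 0 (eri-1;dis-3;rrf), 1.66 (eri-1;dis-3), 8.23 (eri-1;exos-1), 3.19 (eri-1;exos-10) and 1.61 (eri-1). The log2 fold change was 12.02 ± 0.64 (SE), with an edgeR adjusted p of 6.47e-07. No L3 library came near any young adult library for this gene.

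col-8 had 4222, 4183, 4524 and 1518 sense RPM in fib-1, mtr-4, nol-56 and L4440 RNAi, and at most 3.32 in the 5 L3 libraries (log2 fold change 10.94 ± 0.60). col-20 had a log2 fold change of 10.61 ± 0.79, col-178 of 9.56 ± 0.59 and col-124 of 9.36 ± 0.58. Their edgeR adjusted p-values were 6.47e-07, 4.60e-06, 1.11e-06 and 1.11e-06. In each of these genes the lowest young adult library was above all 8 L3 libraries. The same held for 26 of the 87 tested col genes, against 10.9% of all genes tested.

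col-81 differed most among the young adult libraries within this group of 8. It had 503 (fib-1), 2154 (mtr-4), 4239 (nol-56) and 255 (L4440) sense RPM, and 3 reads in the 5 L3 libraries together. The pooled ratio was 1743 with an interval of 596 to 8453. col-181 and col-119, which complete the 5 highest medians in young adults with col-140, col-124 and col-8, had log2 fold changes of 8.70 ± 0.54 and 8.76 ± 0.46. These were collagens of young adults in every RNAi condition, at levels that differed between the clones.

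The other genes called higher had smaller log2 fold changes, the smallest of them col-94 at 1.91 ± 0.62 (edgeR adjusted p = 0.036). col-71 was called higher (5.42 ± 1.12), yet its groups overlapped. It had 159, 322 and 1155 sense RPM in fib-1, mtr-4 and nol-56 RNAi, and 5.08 in L4440 RNAi, where the 5 eri-1(mg366) L3 libraries had 5.64 to 19.8. L4440 RNAi was below all of these, and the other 3 RNAi libraries were above all 8 L3 libraries.

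Of the genes lower in young adults, col-41 had the largest change. Its level was 4.46, 5.75, 3.51 and 1.10 in fib-1, mtr-4, nol-56 and L4440 RNAi. It was 201, 294, 558, 102 and 331 in the L3 libraries eri-1;dis-3;rrf, eri-1;dis-3, eri-1;exos-1, eri-1;exos-10 and eri-1. The gene fell by 6.26 ± 0.63 on the log2 scale (edgeR adjusted p = 3.18e-05). The highest young adult library was far below the lowest L3 library.

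col-54 fell by 4.56 ± 0.64 and col-90 by 3.95 ± 0.88 on the log2 scale. col-128 fell by 3.31 ± 0.69, col-55 by 3.11 ± 0.74 and col-76 by 2.82 ± 0.46. Adjusted p-values of edgeR for these 5 genes lay between 2.36e-04 and 8.27e-03. col-90 had 29.7, 38.3, 62.2 and 1.10 sense RPM in fib-1, mtr-4, nol-56 and L4440 RNAi, and between 244 and 1226 in the 5 L3 libraries. In all 6 genes from col-41 to col-76 the young adult libraries lay below all 8 L3 libraries. So they did for 13 of the 87 tested col genes, against 8.68% of all genes tested.

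The most abundant L3 collagens were also in the lower group. By median over the 8 total L3 libraries these were col-117 (1006 sense RPM), col-166 (954), col-3 (939), col-144 (684) and col-10 (645). col-117 fell by 2.59 ± 0.69 and col-3 by 2.54 ± 0.67 on the log2 scale. col-166 fell by 2.24 ± 0.67, col-10 by 2.12 ± 0.60 and col-144 by 2.11 ± 0.63, with edgeR adjusted p-values between 0.014 and 0.025 for the 5 genes. col-17 (2.01 ± 0.63, adjusted p = 0.032) and col-125 (1.97 ± 0.68, adjusted p = 0.047) also fell in the edgeR test, by these log2 values.

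These moderate falls depended on the libraries. Without fib-1 RNAi, and likewise without mtr-4 RNAi, 8 genes were called lower, and col-10, col-17, col-125, col-144 and col-166 were lost. Without nol-56 RNAi 32 col genes were called lower, and the median of the col genes tested was -0.70. The 8 genes col-41, col-54, col-90, col-128, col-55, col-76, col-117 and col-3 were called lower in every alternative that was run. Of the 31 genes called higher, 30 were called in every alternative, and col-94 was lost in some.

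**Figure D2:**
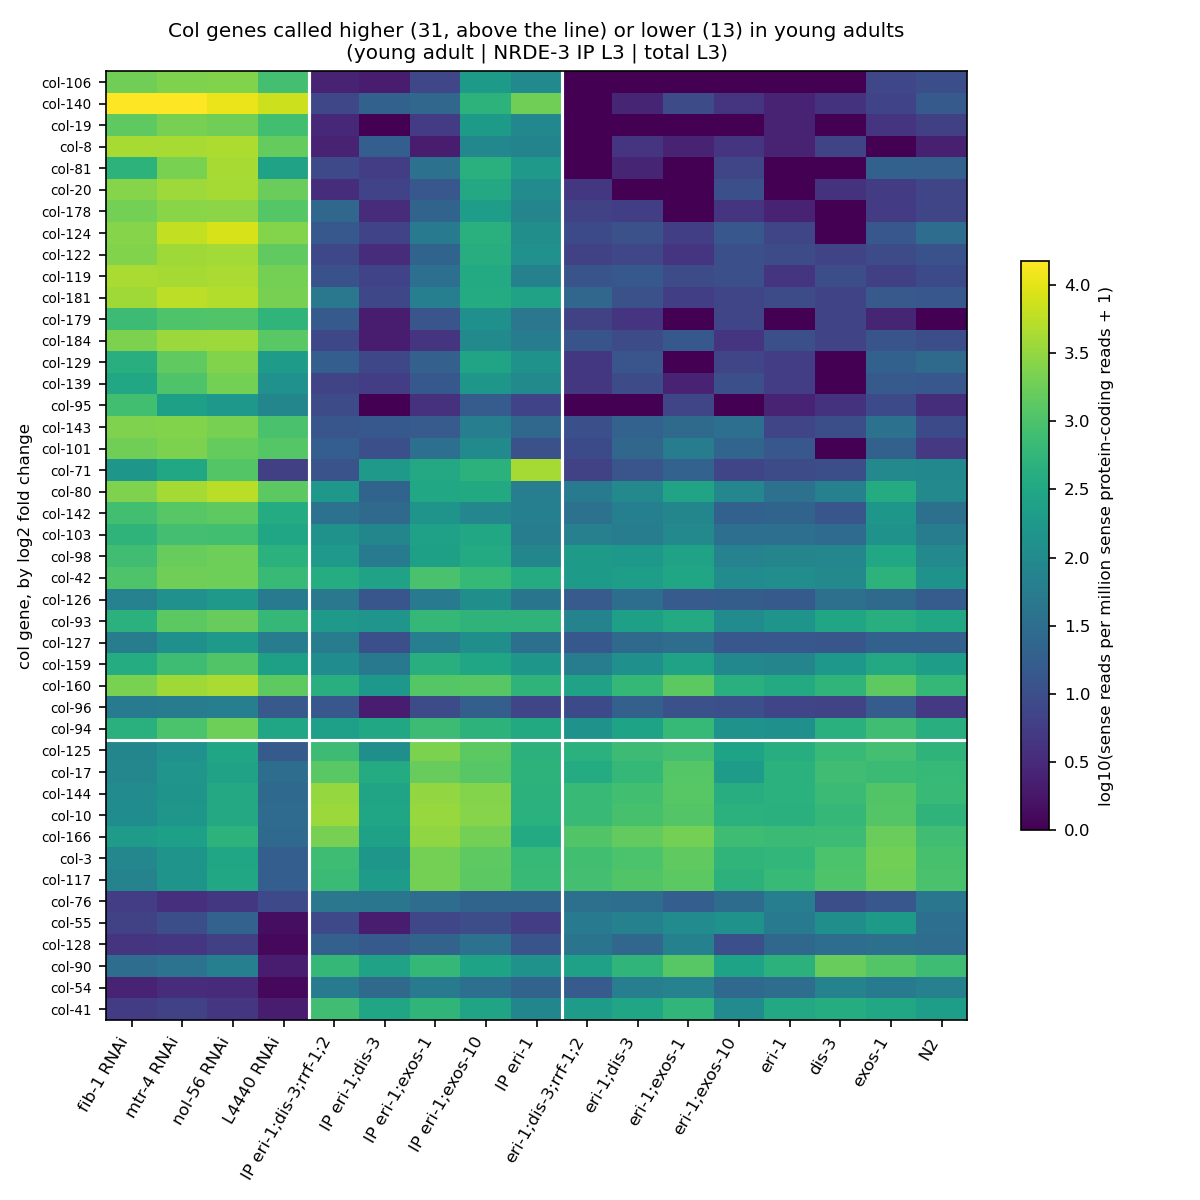
Sense level of the 44 called col genes in 17 libraries, as log10 of sense RPM plus 1, ordered by log2 fold change. The 31 genes above the white line have higher fitted levels in the 4 young adult libraries than in the 5 total eri-1 L3 libraries, and the 13 below it lower ones, with some single libraries overlapping. The IP control and the exos-10 IP also hold reads of the upper group.

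Collagens with a textbook stage or role did not all follow these groups. col-7, an adult collagen, had 33.0, 117, 323 and 5.30 sense RPM in fib-1, mtr-4, nol-56 and L4440 RNAi, and between 1.66 and 4.94 in the 5 L3 libraries. The expression filter, which needs a minimum level in enough of the libraries, left col-7 out of the test. col-12 and col-13, a tandem pair, were not called (log2 fold changes of 0.78 ± 0.78 and 0.73 ± 0.70, edgeR adjusted p = 0.47 and 0.46). col-2 and col-40, which are associated with the dauer larva, were not tested, at 15.4 to 30.2 and 5.74 to 14.1 sense RPM in young adults, and 3.29 to 21.6 and 1.61 to 9.58 in the 5 L3 libraries. col-99, which encodes a transmembrane collagen, was not tested either, at 4.79 to 14.6 in young adults and 8.30 to 28.7 in the 5 L3 libraries.

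Other cuticle genes listed here moved with the lower group where they were called. Of 21 collagens named for body shape (dpy, sqt, rol, bli, lon and ram genes), 16 were tested, 0 were called higher and 9 lower. The median log2 fold change of those tested was -2.36 against 0.11 over all genes. The expression filter left out bli-1, bli-2, bli-6, dpy-14 and dpy-17. Their mean sense RPM in young adults was 46.4, 31.7, 185, 18.9 and 13.9 in this order. In the L3 libraries of the test it was 0.329, 3.30, 3.41, 13.3 and 15.4. The listed bli genes thus had higher means in young adults, but were not tested. dpy-10 fell by 3.36 ± 0.53 and dpy-7 by 3.20 ± 0.51 on the log2 scale (edgeR adjusted p = 5.94e-04 and 6.60e-04). Of 10 molting genes 8 were called lower and 0 higher. noah-1, which encodes a component of the cuticle matrix, fell by 2.93 ± 0.52 on the log2 scale (edgeR adjusted p = 1.48e-03). Of 8 tested genes for collagen processing, 1 was called, the disulfide isomerase gene pdi-2, which fell by 1.86 ± 0.33 on the log2 scale (edgeR adjusted p = 1.51e-03). Of 3 basement membrane collagens, cle-1 rose by 0.78 ± 0.25 on the log2 scale (edgeR adjusted p = 0.032), and emb-9 and let-2 were not called.

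Markers of other tissues also moved with stage. Yolk genes, made in the adult intestine, summed to between 36838 and 72123 sense RPM in young adults and 3.29 and 38.3 in total L3 libraries. All 6 yolk genes, 29 of 29 tested major sperm protein genes and 4 of 4 tested oocyte genes were called higher. Of 5 tested hypodermal genes 2 were called lower (nhr-25 and grd-1) and 0 higher. Their part in the col results was not tested.

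Within the young adult set, each RNAi clone was compared with L4440 RNAi. These are pairs of single libraries that share the L4440 library, so intervals cover counting error only and no p is given. Summed sense col reads were 1.91 times L4440 in fib-1 RNAi (exact 95% interval 1.90 to 1.93), 2.70 times in mtr-4 RNAi (2.69 to 2.72) and 3.18 times in nol-56 RNAi (3.16 to 3.20). Most members were higher. With at least 20 reads in 1 of the 2 libraries, 68 of 105 col genes were at least 2-fold higher and 3 lower in fib-1 RNAi, where 21.3% and 12.9% of all genes were. In mtr-4 RNAi 106 of 117 were higher and 5 lower, against 23.1% and 11.6% of all genes. In nol-56 RNAi 111 of 123 were higher and 3 lower, against 28.0% and 28.1% of all genes. Median log2 ratios of the col genes were 1.43, 2.42 and 3.53 in fib-1, mtr-4 and nol-56 RNAi, beside -0.08, -0.01 and -0.23 over all genes.

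The choice of denominator scaled these values. With the normalization number as denominator the summed ratios were 1.16, 1.59 and 2.43 for fib-1, mtr-4 and nol-56 RNAi, and 49, 73 and 98 col genes were at least 2-fold higher. The median of all genes on that scale was -0.80, -0.78 and -0.61 on the log2 scale. The col genes stayed above all genes on both scales.

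The clones fell in 1 order for most members. Of 125 col genes with at least 20 reads in 1 of the 4 libraries, 116 (92.8%) were lowest in L4440, and 92 (73.6%) increased in the order L4440, fib-1, mtr-4, nol-56. Over all 12927 genes with this depth, 38.5% were lowest in L4440 and 12.2% followed that order.

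The genes called lower in young adults differed more between clones than those called higher. col-166 had 197, 230 and 494 sense RPM in fib-1, mtr-4 and nol-56 RNAi (661, 959 and 2537 reads), against 25.8 in L4440 (117 reads). The ratio to L4440 was 7.61 (6.24 to 9.34) in fib-1, 8.90 (7.34 to 10.9) in mtr-4 and 19.1 (15.9 to 23.3) in nol-56 RNAi. col-10 was 3.82, 5.67 and 11.6 times its L4440 level in the same order, and col-3 was 5.19, 8.64 and 17.9 times. Over the 13 genes called lower in young adults the median ratio was 5.19, 8.64 and 17.9, and over the 31 genes called higher it was 1.74, 2.73 and 2.89. These genes were called with the same 4 libraries, so the medians are a description.

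Among single genes col-71 differed most between nol-56 and L4440 RNAi of those named here. It had 535, 1342 and 5924 sense reads in fib-1, mtr-4 and nol-56 RNAi against 23 in L4440, a ratio of 31.3 (20.7 to 49.9), 63.3 (42.0 to 100.3) and 227 (151 to 359). col-7 was 60.9 times (40.8 to 95.3) and col-12 26.0 times (22.5 to 30.4) its L4440 level in nol-56 RNAi. col-140, the most abundant, was 1.58 times (1.56 to 1.60) its L4440 level there. col-76 went the other way, with a ratio of 0.35 (0.16 to 0.71) in mtr-4 and 0.49 (0.27 to 0.89) in nol-56 RNAi.

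**Figure D3:**
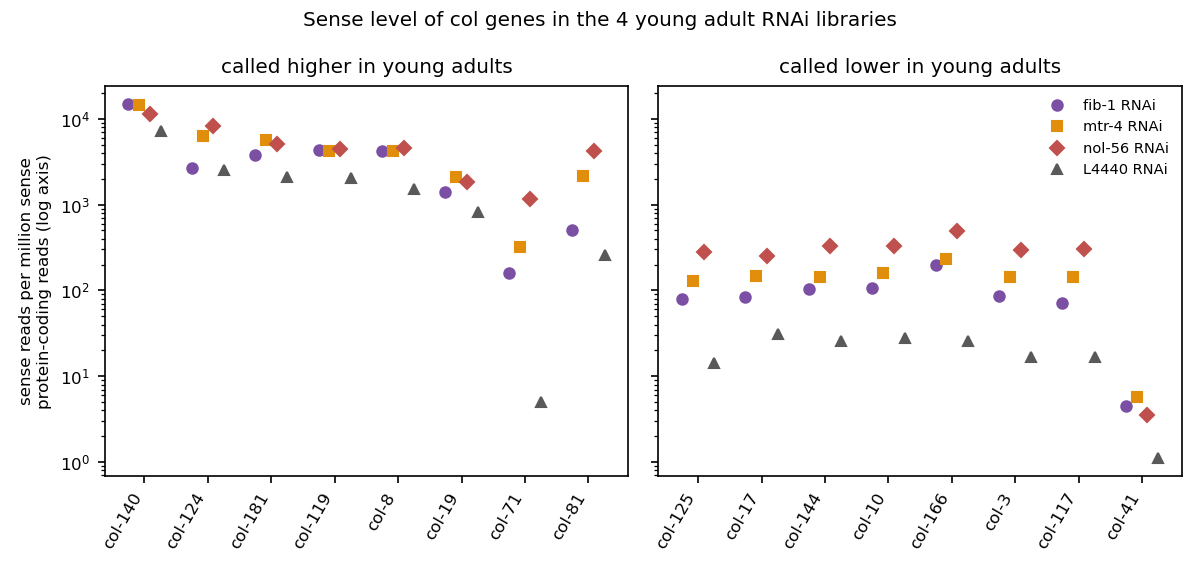
Sense RPM (log axis) of 8 col genes called higher and 8 called lower in young adults, in fib-1, mtr-4, nol-56 and L4440 RNAi libraries. L4440 RNAi is the lowest point for each gene shown, and the spread between clones is widest for col-71.

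Sums of the shape collagens, molting genes and basement membrane genes gave the same order of libraries, with L4440 lowest. The shape collagens summed to 1033, 1496 and 3652 sense RPM in fib-1, mtr-4 and nol-56 RNAi and 225 in L4440, the molting genes to 1754, 2023 and 2648 against 875, and the basement membrane genes to 1929, 2400 and 3658 against 1225. Oocyte genes were lower, at 1804, 1594 and 382 against 3628 in L4440, and yolk genes summed to 43823, 60259 and 36838 against 72123. The hypodermis list summed to 173, 148 and 129 against 215, and the major sperm protein genes to 2764, 4235 and 2015 against 4560. The part of these tissues and of the age of the animals in the col ratios was not tested.

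Exosome mutants were compared with their controls in total L3 RNA. Here dis-3 and exos-1 share the N2 library, and the 3 eri-1 mutants share the eri-1 library. Sense col reads were 2.86% of sense protein-coding reads in exos-1 and 1.78% in N2, a ratio of 1.61 (1.57 to 1.64). In the eri-1 background they were 2.80% in eri-1;exos-1 and 1.09% in eri-1, a ratio of 2.58 (2.51 to 2.66). dis-3 did not differ from N2 beyond counting error (1.00, 0.97 to 1.03), while eri-1;dis-3 was 1.56 times eri-1 (1.51 to 1.61). eri-1;exos-10 was lower, at 0.815 times eri-1 (0.779 to 0.852).

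By gene, 18 of 85 col genes were at least 2-fold higher in exos-1 than in N2 and 3 lower, against 11.2% and 10.4% of all genes. In eri-1;exos-1, 48 of 66 were higher than in eri-1 and 1 lower, against 28.7% and 17.2% of all genes. In eri-1;dis-3, 10 of 57 were higher and 0 lower, against 8.52% and 6.70%. In dis-3, 3 of 68 were higher and 13 lower than in N2, against 5.66% and 10.3%. In eri-1;exos-10, 4 of 53 were higher and 13 lower than in eri-1, against 10.4% and 11.6%. The exos-1 libraries thus had higher shares of col reads than their controls in both backgrounds, and the dis-3 libraries in 1 of them.

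The abundant L3 collagens showed the same. col-166 had 1994 sense RPM in eri-1;exos-1 and 694 in eri-1 (ratio 2.87, 2.57 to 3.21), and 1637 in exos-1 against 790 in N2 (2.07, 1.89 to 2.27). col-10 was 2.61 times (2.27 to 3.01) higher in eri-1;exos-1 than in eri-1 and 2.26 times (2.02 to 2.53) in exos-1 than in N2. col-90 was 2.14 times (1.90 to 2.42) higher in dis-3 than in N2. col-76 was lower, at 0.22 (0.04 to 0.70) in dis-3 over N2, 0.30 (0.15 to 0.57) in exos-1 over N2, 0.28 (0.12 to 0.57) in eri-1;exos-1 over eri-1 and 0.53 (0.29 to 0.95) in eri-1;dis-3 over eri-1.

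These ratios changed with the denominator. With the normalization number as denominator eri-1;exos-1 was 1.01 times eri-1 (0.98 to 1.04), eri-1;dis-3 was 0.992 times eri-1 and dis-3 was 0.419 times N2. exos-1 remained higher than N2 on that scale, at 2.44. Molting genes were also higher than in the control in eri-1;exos-1, in dis-3 and in exos-1, at 11318 sense RPM in exos-1, 10342 in dis-3 and 7446 in N2, and at 15167 in eri-1;exos-1, 4625 in eri-1;dis-3, 4283 in eri-1;exos-10 and 4826 in eri-1. Their part in the col values was not tested.

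Loss of RRF-1 and RRF-2 in eri-1;dis-3 went with fewer sense col reads, 0.681 times eri-1;dis-3 (0.660 to 0.703). eri-1 had 0.610 times the share of N2 (0.592 to 0.628), and 1.31 times N2 with the normalization number as denominator.

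**Figure D4:**
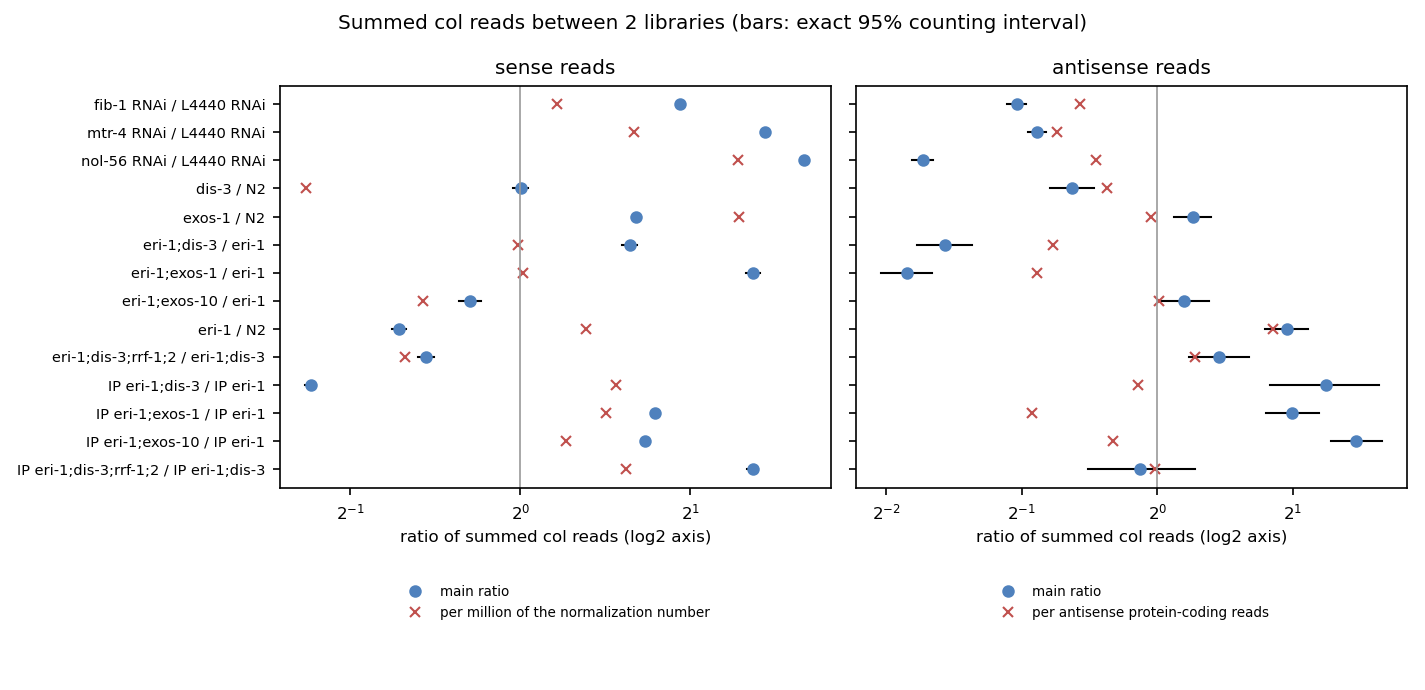
Ratio of summed col reads between 2 libraries (log2 axis) for sense and antisense reads, with exact 95% counting intervals. Crosses give the same ratio with another denominator (the normalization number for sense, antisense protein-coding reads for antisense). Sense ratios of the 3 RNAi clones lie above 1 and antisense ratios below 1 with both denominators, while several exosome ratios change sides.

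Antisense reads on col genes were few. For each 1000 sense reads the col genes had between 3.58 and 145 antisense reads, against 53.4 to 1494 over all protein-coding genes, and the col value was the lower one in every library. Antisense reads were held by a few genes. Of all antisense col reads 24.4% fell on col-71, 70.0% on the top 5 genes and 78.3% on the top 10. At least 10 antisense reads were found on 15 to 17 members in young adult libraries, 1 to 39 in IP libraries and 5 to 9 in total L3 libraries.

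Summed antisense col reads were 546 RPM in fib-1, 606 in mtr-4, 338 in nol-56 and 1120 in L4440 RNAi. In the 8 total L3 libraries they ranged over 62.9 to 260 RPM with a median of 111, below all young adult libraries. Per 1000000 antisense protein-coding reads the groups overlapped, at 1389 to 2323 in young adults and 1063 to 2506 in L3. The higher RPM in young adults therefore goes with more antisense reads over all genes.

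In the same edgeR test on antisense reads, which scales by antisense protein-coding reads, 9 col genes passed the expression filter among 4387 genes tested. 1 was higher and 2 were lower in young adults, and 8.96% and 7.64% of all genes were. col-71 (chromosome II, 3500077 to 3502570, minus strand) had 185, 189, 123 and 409 RPM in fib-1, mtr-4, nol-56 and L4440 RNAi. In the 5 L3 libraries it had 11.5 (eri-1;dis-3;rrf), 5.68 (eri-1;dis-3), 1.42 (eri-1;exos-1), 3.88 (eri-1;exos-10) and 37.8 (eri-1). Its log2 fold change was 2.25 ± 0.71 (edgeR adjusted p = 0.048). The call was lost on leaving out any 1 of 8 of the 9 libraries, with adjusted p between 0.072 and 0.11, and was kept without eri-1.

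col-87 (chromosome II, 14089851 to 14094690, minus strand) fell by 3.36 ± 0.76 and col-72 (chromosome II, 3520703 to 3524197, minus strand) by 2.48 ± 0.52 on the log2 scale (edgeR adjusted p = 0.012 and 7.88e-03). On the RPM scale both overlapped between stages. col-87 had 2.58, 4.03, 1.78 and 3.42 RPM in fib-1, mtr-4, nol-56 and L4440 RNAi and 0 to 13.6 RPM in the 5 L3 libraries, with 0 reads in eri-1. The call of col-72 was lost with all 8 L3 libraries (edgeR adjusted p = 0.053). col-87 was not called without fib-1 RNAi (adjusted p = 0.050 in edgeR) or without any 1 of the 4 exosome mutant L3 libraries. The genes col-45, col-60, col-85, col-111, col-157 and col-162 were not called.

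Overlaps with neighbours bear on these antisense counts. An exon of col-71 overlaps the non-coding gene Y49F6B.15 over 105 bases, and reads of that gene were not counted here. col-111 overlaps psr-1 over 60 bases (up to 226 sense reads in a library), col-87 overlaps xrn-1 over 27 bases (up to 1399) and col-72 overlaps clec-126 over 10 bases (up to 2). The genes col-45, col-60, col-107 and col-157 had no such overlap. The share of antisense reads that comes from the neighbours was not tested.

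Between RNAi clones antisense col reads were lower than in L4440, at 0.488 times (0.464 to 0.512) in fib-1, 0.541 times (0.518 to 0.566) in mtr-4 and 0.302 times (0.286 to 0.319) in nol-56 RNAi. In fib-1 RNAi 10 of 14 members were at least 2-fold lower and 0 higher, against 42.2% and 3.01% of all genes. In mtr-4 RNAi 6 of 15 were lower and 0 higher, against 60.5% and 9.46%, and in nol-56 RNAi 12 of 14 were lower and 0 higher, against 86.2% and 2.13%. The member medians were -1.24, -0.90 and -2.07 in fib-1, mtr-4 and nol-56 RNAi, beside -0.88, -1.31 and -2.35 over all genes on the log2 scale. The direction was thus shared with the antisense reads of most genes. By sum the fall was larger in the col genes, as the ratio over all genes was 0.723, 0.906 and 0.414 in the same order. Per antisense protein-coding reads the col sums were still 0.675, 0.598 and 0.730 times L4440, with intervals below 1.

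col-71 moved the most reads, with 860, 1128 and 691 antisense reads in fib-1, mtr-4 and nol-56 RNAi and 1554 in L4440. Its RPM ratio was 0.45 (0.42 to 0.49), 0.46 (0.43 to 0.50) and 0.30 (0.27 to 0.33). col-111 (chromosome IV, 4655791 to 4657974, minus strand) was 0.38, 0.43 and 0.25 times L4440 in the same order. Without col-71 the summed ratios were 0.508, 0.587 and 0.303 in the same order. col-71 had more sense and fewer antisense reads in each of the 3 RNAi libraries than in L4440.

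The exosome mutants split the antisense members into genes that lost and genes that gained reads. col-111 had 4 antisense reads in dis-3 and 3 in exos-1 against 162 in N2, and 1, 3 and 2 in eri-1;dis-3, eri-1;exos-1 and eri-1;exos-10 against 147 in eri-1. In RPM these were 0.59 and 0.44 against 23.8, and 0.26, 0.47 and 1.29 against 57.8. All 5 mutants lay at or near the floor of 3 reads. The ratios were 0.02 (0.01 to 0.06) for dis-3 and 0.02 (0.00 to 0.06) for exos-1 over N2. Put the other way, eri-1 had 224 times (39.5 to 8900) the RPM of eri-1;dis-3, 122 times (41.0 to 599) that of eri-1;exos-1 and 44.7 times (12.2 to 373) that of eri-1;exos-10. Its sense level was 52.4 in dis-3 and 41.7 in exos-1 against 39.8 sense RPM in N2. In the eri-1 background it was 33.2 with dis-3, 52.7 with exos-1 and 22.4 with exos-10 against 45.0 in eri-1 (20, 32, 7 and 28 reads).

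col-71 had 57 antisense reads in dis-3 and 20 in exos-1 against 272 in N2, ratios of 0.21 (0.15 to 0.28) and 0.07 (0.04 to 0.12). In the eri-1 background it had 22, 9 and 6 reads in eri-1;dis-3, eri-1;exos-1 and eri-1;exos-10 against 96 in eri-1, and 5.68, 1.42 and 3.88 RPM against 37.8. col-157 (chromosome V, 11484042 to 11485039, plus strand) had 27 reads in dis-3 and 0 in exos-1 against 63 in N2, and 9, 5 and 11 in the 3 eri-1 mutants against 38 in eri-1. In these 3 genes each mutant was below its control. Each of them was among the 5 highest antisense members in young adults.

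col-45 (chromosome I, 115687 to 117498, plus strand) went the other way over N2. It had 286 reads in dis-3 and 571 in exos-1 against 138 in N2, ratios of 2.08 (1.69 to 2.56) and 4.16 (3.45 to 5.05). In the eri-1 background the directions were mixed, with 2.12 times (1.64 to 2.76) in eri-1;exos-10, 0.69 times (0.53 to 0.91) in eri-1;dis-3 and 0.25 times (0.18 to 0.34) in eri-1;exos-1. Per antisense protein-coding reads eri-1;dis-3 was 1.21 times eri-1 (0.92 to 1.59). col-60 (chromosome I, 7105302 to 7106926, plus strand) was 2.87 times as high (2.10 to 3.97) in eri-1;exos-10 as in eri-1, on 112 reads against 64.

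col-87 had 159 antisense reads in exos-1 against 1 in N2, a ratio of 160 (28.3 to 6356). It had 5 reads in dis-3. In the eri-1 background it had 17, 85 and 21 reads in eri-1;dis-3, eri-1;exos-1 and eri-1;exos-10 against 0 in eri-1, and 30 in eri-1;dis-3;rrf. col-72 had 9 reads in dis-3 and 38 in exos-1 against 2 in N2, and 18, 41 and 15 in the 3 eri-1 mutants against 3 in eri-1. Both genes were above their control in every exosome mutant of total RNA, and both had few sense reads, 23 on col-87 and 190 on col-72 in all 17 libraries.

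**Figure D5:**
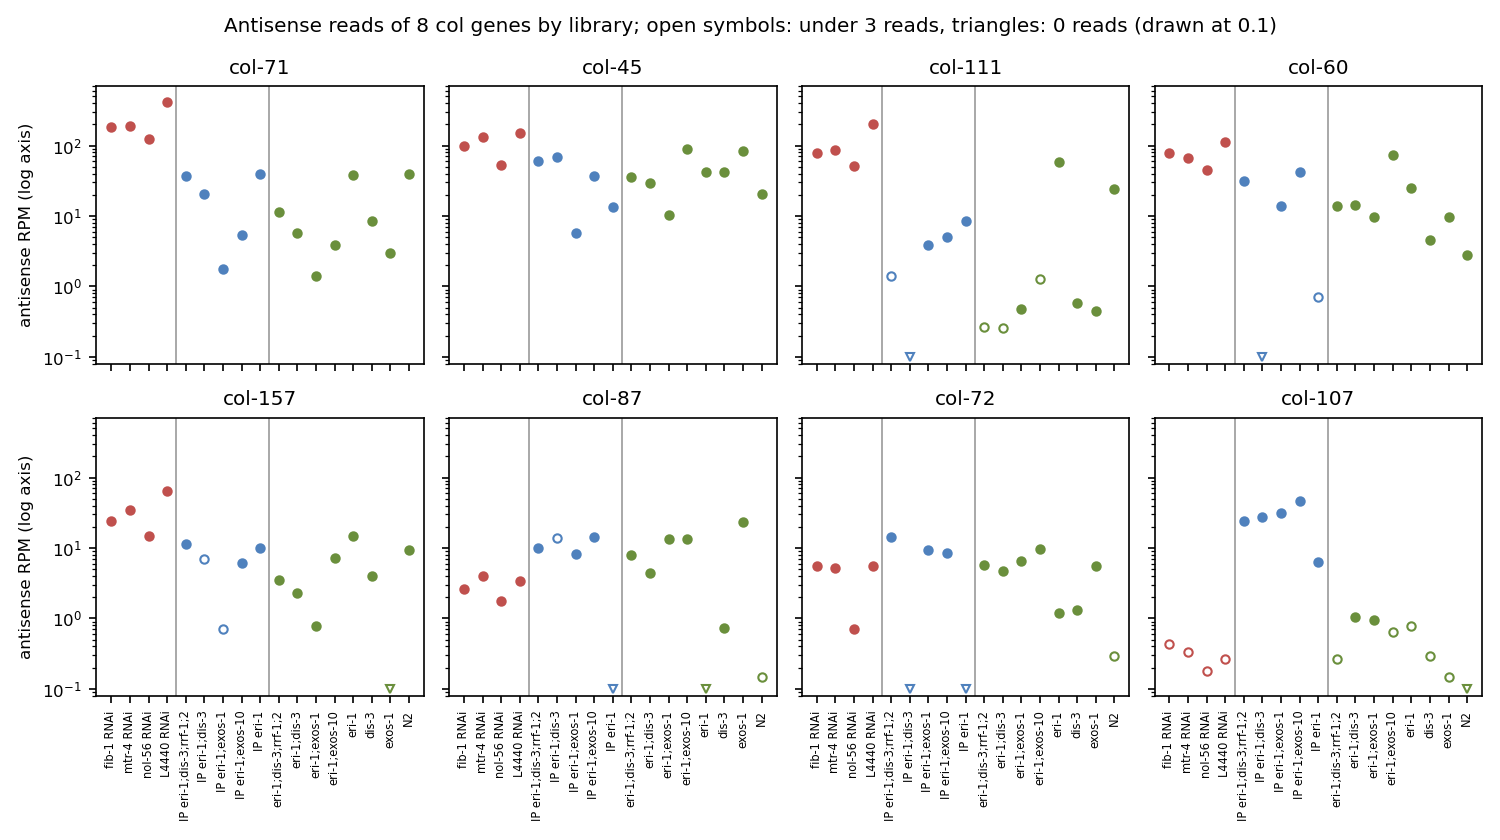
Antisense RPM (log axis) of 8 col genes in young adult (red), NRDE-3 IP (blue) and total L3 libraries (green). Open symbols have under 3 reads, and triangles have 0 reads and are drawn at 0.1. col-111 and col-71 are high in eri-1 and N2 and low in the exosome mutants of total L3 RNA, and col-107 is high in IP libraries only.

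Over all members the opposite changes partly cancelled. Summed antisense col reads were 0.648 times N2 in dis-3 (0.579 to 0.725) and 1.20 times in exos-1 (1.09 to 1.32). Without col-45 exos-1 was at 0.578 times N2. In the eri-1 background the ratios were 0.338 (0.292 to 0.389) for dis-3, 0.278 (0.244 to 0.316) for exos-1 and 1.15 (1.01 to 1.30) for exos-10, and 0.926 (0.794 to 1.08) for exos-10 without col-45. Over all genes the antisense ratios were 0.575 for eri-1;dis-3 and 0.513 for eri-1;exos-1. The col ratios were 0.587 and 0.542 per antisense protein-coding reads.

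Counts past 2-fold were small. In dis-3 over N2 1 of 7 members was higher and 5 lower, against 11.2% and 37.2% of all genes. In exos-1 over N2 5 of 10 were higher and 5 lower, against 22.9% and 14.5%. In eri-1;dis-3 0 of 5 were higher and 3 lower, against 8.42% and 45.3%. In eri-1;exos-1 2 of 8 were higher and 5 lower, against 16.7% and 28.7%, and in eri-1;exos-10 3 of 6 were higher and 2 lower, against 39.8% and 16.4%.

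These reads were not lower with loss of RRF-1 and RRF-2. Summed antisense col reads in eri-1;dis-3;rrf were 1.37 times those in eri-1;dis-3 (1.18 to 1.60), and col-45 had 134 reads against 112. eri-1 had 1.94 times the summed RPM of N2 (1.74 to 2.16).

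NRDE-3 IP libraries were compared with the IP control. Summed antisense col reads were 388 RPM in the exos-1 IP, 537 in the exos-10 IP, 460 in the dis-3 IP and 194 in the control IP. The ratios to the control were 2.00 (1.75 to 2.29), 2.76 (2.43 to 3.15) and 2.36 (1.78 to 3.10). The dis-3 IP had 67 antisense col reads in all. As a check of strand, 98.6%, 98.1% and 99.4% of miRNA reads were sense in the exos-1, exos-10 and dis-3 IPs. The control IP had 99.9% and total L3 libraries 99.98% to 99.99%. Col genes had 7.03, 11.5 and 7.98 antisense reads per 1000 sense reads in these 3 IPs, against 4.99 in the control IP. The part of wrong-strand reads in the ratios was not tested. In the exos-1 IP 15 of 18 members were at least 2-fold higher and 1 lower, against 88.1% and 1.79% of all genes, and in the exos-10 IP 18 of 22 were higher and 1 lower, against 85.9% and 1.85%. In the dis-3 IP the only member with enough reads passed in neither direction, against 54.3% and 7.19%. Per antisense protein-coding reads the 3 ratios were below 1, at 0.527, 0.799 and 0.907, so the col genes followed or trailed the rest of the antisense reads.

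col-107 (chromosome IV, 1548721 to 1549714, plus strand) had its highest antisense levels in IP libraries. It had 24.0, 27.4, 31.6, 46.9 and 6.36 RPM in the IPs of dis-3;rrf, dis-3, exos-1, exos-10 and the control (17, 4, 89, 138 and 9 reads). In the total L3 libraries it had between 0 and 1.03 RPM and at most 6 reads, and in young adults at most 0.430 RPM. All 5 IP libraries were above all other libraries. So they were for other members with fewer reads, such as col-90 with 7.05 to 28.2 RPM in the IPs and at most 0.43 elsewhere. Its 13.7 RPM in the dis-3 IP came from 2 reads, under that library's floor of 20.6 RPM. Antisense RPM over all genes was also higher in the IPs than in the matched total libraries. The ratios were 4.79, 5.84, 9.53, 3.92 and 1.29 for dis-3;rrf, dis-3, exos-1, exos-10 and the control. How many of all genes had this pattern was not counted. An exon of col-90 overlaps let-754 on the other strand over 98 bases (up to 883 sense reads in a library). The share of its antisense reads that comes from let-754 was not tested. The RPM of col-107 in the exos-10 IP was 7.37 times that in the control IP (3.77 to 16.5). It was 72.6 times that in total eri-1;exos-10 (12.8 to 2887, on 138 reads and 1). Per antisense protein-coding reads these were 2.13 (1.09 to 4.76) and 18.5 (3.27 to 737). col-60 had 123 reads in the exos-10 IP and 1 in the control IP, a ratio of 59.1 (10.4 to 2353).

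col-111 had 12 antisense reads in the control IP and 147 in total eri-1, an RPM ratio of 0.15 (0.07 to 0.26). Summed over members, the IP over the total library of the same mutations was 4.02 for dis-3;rrf, 6.01 for dis-3, 6.16 for exos-1, 2.07 for exos-10 and 0.858 for the control in RPM. Per antisense protein-coding reads the same ratios were 0.839, 1.03, 0.647, 0.528 and 0.666. For dis-3;rrf, exos-1 and exos-10 the direction thus depended on the denominator. The control was below 1 on both scales, and dis-3 came near 1 on the second.

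Sense reads in the IP libraries differed in the kind of collagen. Sense col reads were 2.59%, 1.00%, 4.08%, 3.92% and 2.36% of sense protein-coding reads in the IPs of dis-3;rrf, dis-3, exos-1, exos-10 and the control. Over the control IP the ratios were 0.426 (0.416 to 0.436) for dis-3, 1.73 (1.71 to 1.75) for exos-1 and 1.66 (1.65 to 1.68) for exos-10, and the rrf mutations gave 2.58 times the dis-3 IP (2.52 to 2.64). With the normalization number as denominator, the dis-3 IP was instead 1.48 times the control IP. By median the highest were col-10 (2586 sense RPM), col-144 (2520), col-166 (1982), col-17 (1220) and col-167 (1084).

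The 31 genes higher in young adults made up 41.2% of sense col reads in the control IP and 23.9% in the exos-10 IP, against 10.1% to 16.7% in the total L3 libraries and 8.39% to 14.0% in the other 3 IPs. col-140 had 500 sense RPM in the exos-10 IP and 1878 in the control IP, and at most 23.3 in the other IPs and 14.1 in total L3 libraries. col-71 had 4045 sense RPM in the control IP, above any other library. Both IP libraries are labelled L3. Yolk genes summed to 2613 sense RPM in the exos-10 IP and 1900 in the control IP, with 17 to 321 in the other IPs and at most 38.3 in total L3 libraries. The part of older animals in these 2 libraries was not tested, and each ratio to the control IP rests on it.

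col-40 was higher in 3 of the 5 IP libraries than in the rest, a pattern shared by other members. For example, col-36 had 579, 1326 and 2234 sense reads in the dis-3, exos-1 and exos-10 IPs. It had 67 in the control IP and 24 in the dis-3;rrf IP. col-158 had 279, 1412 and 2935 sense reads against 19 and 35 in the same order. The levels of col-40 are given here as those of a gene with a known stage. col-40 had 3.30, 102, 194, 351 and 8.99 sense RPM in the IPs of dis-3;rrf, dis-3, exos-1, exos-10 and the control. In the total L3 libraries it reached at most 9.58 and in young adults at most 14.1. Over the control IP the ratios were 11.3 (6.95 to 19.2) for dis-3, 21.6 (14.0 to 35.1) for exos-1 and 39.1 (25.5 to 63.4) for exos-10. The dis-3;rrf IP was 0.03 times the dis-3 IP (0.01 to 0.07).

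Against the total library of the same mutations, sense col shares were 2.24 times for dis-3;rrf, 0.593 times for dis-3, 1.46 times for exos-1, 4.44 times for exos-10 and 2.17 times for the control. The share of these sense reads that was bound by NRDE-3 was not tested.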

How the data were processed

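Small RNAs of 17 libraries (1 per condition) were sequenced on an Illumina platform. The labels give inserts of 18 to 40 nt and OP50 as food, where the methods give 18 to 30 nt and HT115 RNAi bacteria. Per the methods, cleaned reads were mapped with Bowtie2 (version not given in the sources used here) at default parameters to the WS243 transcriptome. The deposited tables used here hold counts of reads per transcript, sense and antisense, that are not normalized.

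Counts were summed by gene ID. Names matched 20231 of 20535 protein-coding gene IDs. Up to 3 blank values in a library counted as 0, and 3 transcript rows without a gene (at most 248 reads per library) were left out. Total reads on transcripts stand in for the genome-mapped total in the normalization number. Stage was tested with edgeR 4.0.16 (TMM, filterByExpr, R 4.3.3) in the 9 eri-1(mg366) total libraries. DESeq2 1.42.0, no TMM factor, no filter, all 8 L3 libraries and leaving out each library were alternatives. Pairs of libraries have exact (Clopper-Pearson) 95% intervals from the conditional binomial. Reads carry no molecular identifiers, so intervals and floors cover counting error only. Fold counts used a pseudocount of 1 read and genes with at least 20 reads in 1 of the 2 libraries, and fold counts of sense reads were added after seeing the data. The fits and the interval were tested on simulated data. Python 3.11.15, pandas 2.3.3 and scipy 1.17.1 were used.

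Named genes were the 5 highest medians per set and strand, up to 8 largest and 8 smallest log2 fold changes among called genes, up to 3 antisense rises and falls per pair at 100 reads or more, genes with a known stage or role, and list members. col-71 in sense reads, col-94, col-157, col-72 and other called genes are given beside these for their calls or antisense level, and were chosen after their values were seen. Members and lists were chosen with earlier results of these data known.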

Additional observations from a re-analysis of the deposited data

Results flagged for a closer look

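Several summed col ratios ran in opposite directions in 2 settings of the same mutation. Each side is 1 library over 1 library, and the difference between the sides was not tested. Summed antisense col RPM was 1.20 times N2 in exos-1 and 0.278 times eri-1 in eri-1;exos-1. The other flags set total L3 RNA against the NRDE-3 IP. In sense shares eri-1;dis-3 was 1.56 times eri-1 in total RNA and 0.426 times the control in the IP. eri-1;exos-10 was 0.815 times eri-1 in total RNA and 1.66 times the control in the IP. The rrf mutations gave 0.681 times eri-1;dis-3 in total RNA and 2.58 times in the IP. In antisense RPM eri-1;dis-3 was 0.338 times eri-1 in total RNA and 2.36 times the control in the IP, and eri-1;exos-1 was 0.278 times eri-1 in total RNA and 2.00 times in the IP. Several of these directions depend on the denominator. Taken per antisense protein-coding reads, exos-1 was 0.967 times N2, and the exos-1 and dis-3 mutants were 0.542 and 0.587 times eri-1 in total RNA and 0.527 and 0.907 times the control in the IP. With the normalization number, sense dis-3 was 0.992 times eri-1 in total RNA and 1.48 times the control in the IP. The IP ratios of the exosome mutants share 1 control IP, which held yolk and adult collagen reads.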

How the results depend on the processing

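No paired analysis was possible because the groups share fewer than 2 replicate numbers, with 1 library per condition. A fit of the 5 IP against the 5 matched total libraries with genotype as a block was not run. With the normalization number as denominator, summed sense ratios were 0.419 for dis-3 over N2 (0.952 as a share without col-90), 0.992 for eri-1;dis-3 and 1.01 for eri-1;exos-1 over eri-1, 1.31 for eri-1 over N2, 1.48 for the dis-3 IP over the control IP and 21.9 for the dis-3 IP over its total library. Without the gene that moved most reads, antisense ratios were 0.578 for exos-1 over N2, 0.926 for eri-1;exos-10 over eri-1 and 1.10 for the control IP over total eri-1. Per all reads they were 0.985, 0.560, 0.311 (dis-3 IP over control IP), 3.03 (dis-3;rrf IP over dis-3 IP), 0.238 (dis-3 IP over total) and 0.606 (dis-3;rrf IP over total), the first 2 for exos-1 over N2 and eri-1;exos-10 over eri-1. Per antisense protein-coding reads they were 0.967 for exos-1 over N2, 1.01 for eri-1;exos-10 over eri-1, 0.907, 0.527 and 0.799 for the dis-3, exos-1 and exos-10 IPs over the control IP, and 1.03, 0.647, 0.528 and 0.839 for the dis-3, exos-1, exos-10 and dis-3;rrf IPs over total RNA. On that scale col-45 turned to 1.21 in eri-1;dis-3 over eri-1, 0.790 in the exos-10 IP over the control IP, 0.406 in the dis-3 IP over total and 0.352 in the dis-3;rrf IP over total.

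Among antisense 2-fold counts, a minimum of 50 reads left 3 lower in dis-3, 3 higher and 3 lower in exos-1, 1 higher in eri-1;exos-1, 1 higher in the exos-1 IP and 6 higher in the exos-10 IP. Per antisense protein-coding reads 1 was lower in the dis-3 IP, 5 higher and 3 lower in the exos-1 IP, 9 higher and 4 lower in the exos-10 IP, 3 lower in fib-1 RNAi and 5 lower in nol-56 RNAi. Sense counts per normalization number, chosen after seeing the data, were 1 higher and 56 lower in dis-3, 47 higher in exos-1, 3 and 3 in eri-1;dis-3, 7 and 3 in eri-1;exos-1, 2 and 20 in eri-1;exos-10, 7 lower in fib-1 RNAi and 5 lower in nol-56 RNAi.

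In the stage test of sense reads, 47 were higher and 21 lower without the filter, and 26 were lower with all 8 L3 libraries. Leaving out 1 library gave 30 to 42 higher and 8 to 32 lower. For antisense reads 4 were higher and 5 lower without the filter, 1 was lower with all 8 L3 libraries, and leaving out 1 library gave 0 to 4 higher and 1 to 2 lower. Without the TMM factor the median antisense change of all genes was -0.37 on the log2 scale, with 175 genes higher and 536 lower. The cause of these shifts was not tested. Depth limits the dis-3 IP most, with 67 antisense col reads.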
